A study of Mus musculus with 16 samples.

Results

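The hippocampal transcriptome of all mice that carried the 5xFAD amyloid transgenes was compared with that of all mice that lacked them, at 9 months of age. The carriers were the 8 libraries from 5xFAD-Dp16 and 5xFAD mice, and the non-carriers were the 8 libraries from Dp16 and wild-type (WT) mice. Membership was taken from the genotype label alone, and all 16 of the 16 libraries of the series entered. Each genotype had 4 libraries, 2 from females and 2 from males. 5xFAD mice carry human transgenes with familial Alzheimer mutations, APP among them, driven by sequences of the mouse Thy1 gene that are active in neurons. Dp16 mice carry an added copy of a segment of mouse chromosome 16 that holds the mouse App gene. This duplication was present in 4 carriers and 4 non-carriers and was a term of the fit, so that the comparison asks what the transgenes changed beside the duplication. The labels name a strain, C57BL/6J, for the WT mice. The design text counts 4 mice per genotype, from which each library was taken as 1 animal, and no treatment, litter or batch was given.

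Microglia are the resident immune cells of the brain. Around amyloid plaques they are known to leave their resting state and to take up a programme of lipid uptake, phagocytosis and lysosomal digestion that depends on the surface receptor Trem2. Astrocytes near plaques are known to become reactive and to build up the filament protein Gfap, and a part of the microglia in plaque-bearing brains is known to express interferon-stimulated genes. In 5xFAD mice the hippocampus is among the regions where plaques form. In bulk tissue a larger number of cells of 1 type and more RNA of a gene per cell cannot be told apart.

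Total gene counts were between 16922937 and 25308693 per library, and 17132 of 55385 genes had enough counts to be tested. Markers of the hippocampus were present in all 16 libraries, with Prox1 of dentate granule cells at 65.7 to 141 CPM (counts scaled for library depth), Wfs1 of CA1 at 83.1 to 227 CPM and the excitatory factor Neurod6 at 48.8 to 214 CPM. A list of 12 thalamus markers set 6 libraries apart, namely 5xFAD-Dp16 1, 5xFAD 6, 5xFAD 13, 5xFAD 15, Dp16 14 and WT 4. Tcf7l2, a transcription factor of the thalamus, had 56.6 to 141 CPM in these 6 and 6.25 to 10.4 CPM in the other 10. The libraries of high thalamus markers were 4 of 8 among carriers and 2 of 8 among non-carriers. They were 3 of 4 among female carriers and 0 of 4 among female non-carriers, and 1 of 4 among male carriers and 2 of 4 among male non-carriers. For many genes and lists, results are therefore given also for the 10 libraries of low thalamus markers, in which 5xFAD kept 1 library.

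**Figure D1:**
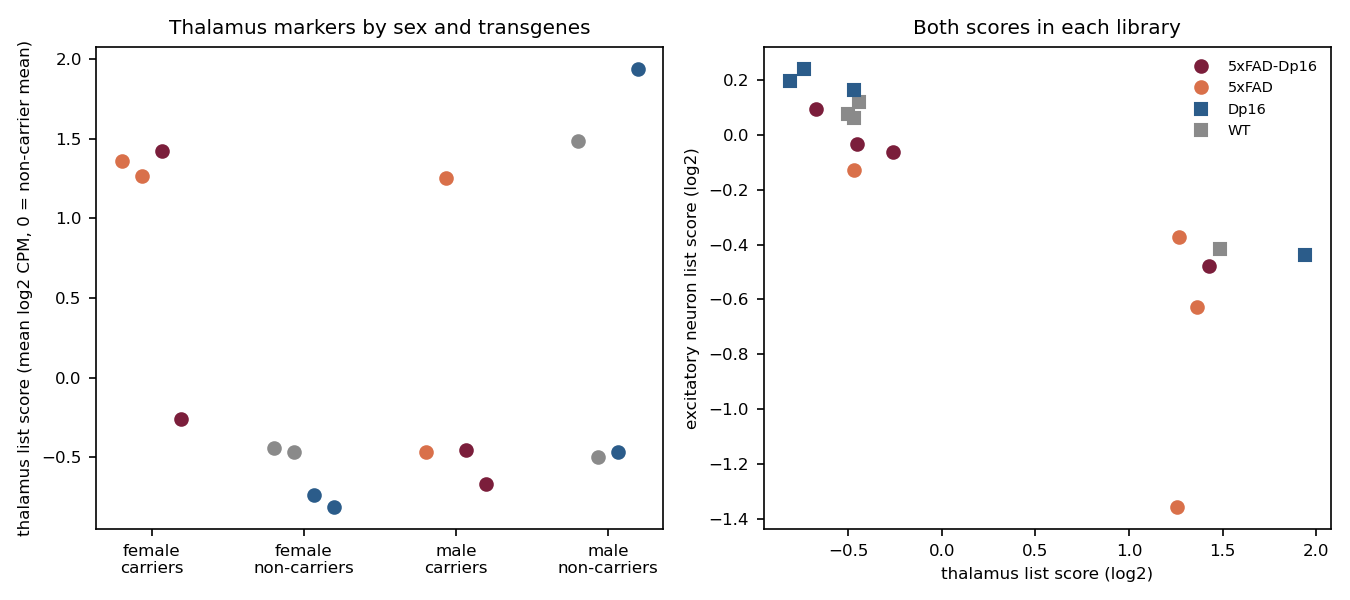
Left, the score of the thalamus marker list in each library (mean log2 CPM of its genes, 0 at the mean of the non-carriers), by sex and transgenes; right, the score of the excitatory neuron list against it. Points are libraries coloured by genotype, circles for carriers and squares for non-carriers on the right; 6 libraries had thalamus scores between 1.26 and 1.94, and their excitatory neuron scores, -1.36 to -0.37, were the 6 lowest.

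In carriers 1123 genes were higher (6.55% of those tested) and 305 were lower (1.78%), at an adjusted p below 0.05. The rises were the larger changes. Of the 1123, 441 had a rise of at least 2-fold and 115 of at least 4-fold, with a median log2 fold change of 0.78. Of the 305, 9 had a fall of at least 1.5-fold, and the median was -0.26. In 458 genes (2.67% of those tested) every carrier library was above every non-carrier library, and in 24 (0.14%) every carrier library was below. Over all genes tested the median was 0.01. In the 10 libraries of low thalamus markers 588 genes were higher (3.25% of 18074 tested) and 40 lower (0.221%), and with the thalamus score as a covariate 1096 were higher and 398 lower. Of the 1123 higher genes, 553 were called in the 10 libraries and 1046 with the covariate. Of the 305 lower genes, 17 and 269 were.

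The split of the calls moved with the test. DESeq2 called 1302 genes higher and 958 lower, and without a filter on low counts 1717 were higher and 999 lower. Without a term for the duplication 139 were lower. The count of lower genes was 944 without 5xFAD 10 and 755 without Dp16 14. It was between 115 and 200 without any single 1 of WT 2, WT 4, WT 7, WT 16, Dp16 3, Dp16 5, Dp16 12, 5xFAD 6, 5xFAD 13, 5xFAD 15, 5xFAD-Dp16 1 or 5xFAD-Dp16 11.

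Thy1, the neuronal surface protein gene whose sequences drive the transgenes (ENSMUSG00000032011.5, GRCm38 chromosome 9, 44043384 to 44048579), served as a check of the labels. It had a lowest, median and highest level of 1354, 2418 and 2821 CPM in carriers, against 698, 816 and 934 CPM in non-carriers. The groups did not overlap, and the log2 fold change was 1.46 ± 0.11 SE (adjusted p = 5.46e-08). By genotype it averaged 2525 ± 129 CPM in 5xFAD-Dp16 and 2009.5 ± 608 CPM in 5xFAD, against 888 ± 40.7 CPM in Dp16 and 749 ± 39.9 CPM in WT (SD, n = 4 each). Counts of the Thy1 gene and of the transgenes that carry its sequences were not told apart. Mouse App, which encodes the amyloid precursor and lies in the duplicated segment, had 1640.1, 2314 and 3049 CPM in carriers, against 1948, 2547 and 3275 CPM in non-carriers, and was not called (-0.16 ± 0.06 SE, adjusted p = 0.0908). These ranges pool mice with and without the duplication. By genotype App averaged 2946 ± 110 CPM in 5xFAD-Dp16, against 3182.5 ± 89.0 CPM in Dp16 (SD, n = 4 each). Without the duplication it averaged 1744 ± 81.5 CPM in 5xFAD, against 2004 ± 39.2 CPM in WT.

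Cst7, Itgax and Clec7a, known from microglia at plaques, were among the largest rises. Cst7, a cystatin that inhibits lysosomal proteases (ENSMUSG00000068129.5, chromosome 2, 150570415 to 150578944), had 34.6, 63.9 and 129.6 CPM (lowest, median, highest) in carriers, against 0.126, 0.268 and 2.09 CPM in non-carriers. Its log2 fold change, 7.19 ± 0.43 SE (adjusted p = 5.48e-08), was the largest of all genes called. The integrin subunit Itgax had 12.6, 23.7 and 38.8 CPM in carriers, against 0.247, 0.452 and 1.02 CPM in non-carriers (5.56 ± 0.29 SE, adjusted p = 2.8e-09). Clec7a, a lectin receptor for fungal glycans, had 15.6, 21.3 and 43.7 CPM in carriers, against 0.185, 0.441 and 2.72 CPM in non-carriers (5.03 ± 0.40 SE). For all 3 genes the lowest carrier lay above the highest non-carrier. The 10 largest rises were taken only from genes without overlap, so that this held by selection. Hcar2, a receptor for niacin and ketone bodies, had 1.34, 2.73 and 4.78 CPM in carriers, against 0, 0.0428 and 0.294 CPM in non-carriers (5.21 ± 0.52 SE, adjusted p = 1.46e-06). Its counts summed to 523 over the 8 carriers and 12 over the 8 non-carriers. The rest of the 10 largest rises, among genes of sufficient level whose groups did not overlap, were the protease gene Ctse (4.76 ± 0.42 SE), the chemokine gene Ccl3 (4.59 ± 0.29 SE), the transglutaminase gene Tgm1 (4.43 ± 0.41 SE), the checkpoint receptor gene Pdcd1 (4.05 ± 0.47 SE), Asb10 (3.75 ± 0.34 SE) and the immune cell receptor gene Ly9 (3.69 ± 0.21 SE). Among them Ctse, Ccl3, Tgm1 and Pdcd1 stood at 0 in at least 1 non-carrier library. Hcar2, Ctse, Tgm1, Pdcd1 and Asb10 had too few counts in non-carriers to be tested from these, and entered the test through carriers alone. A high level in carriers was thus a condition for them to be tested.

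**Figure D2:**
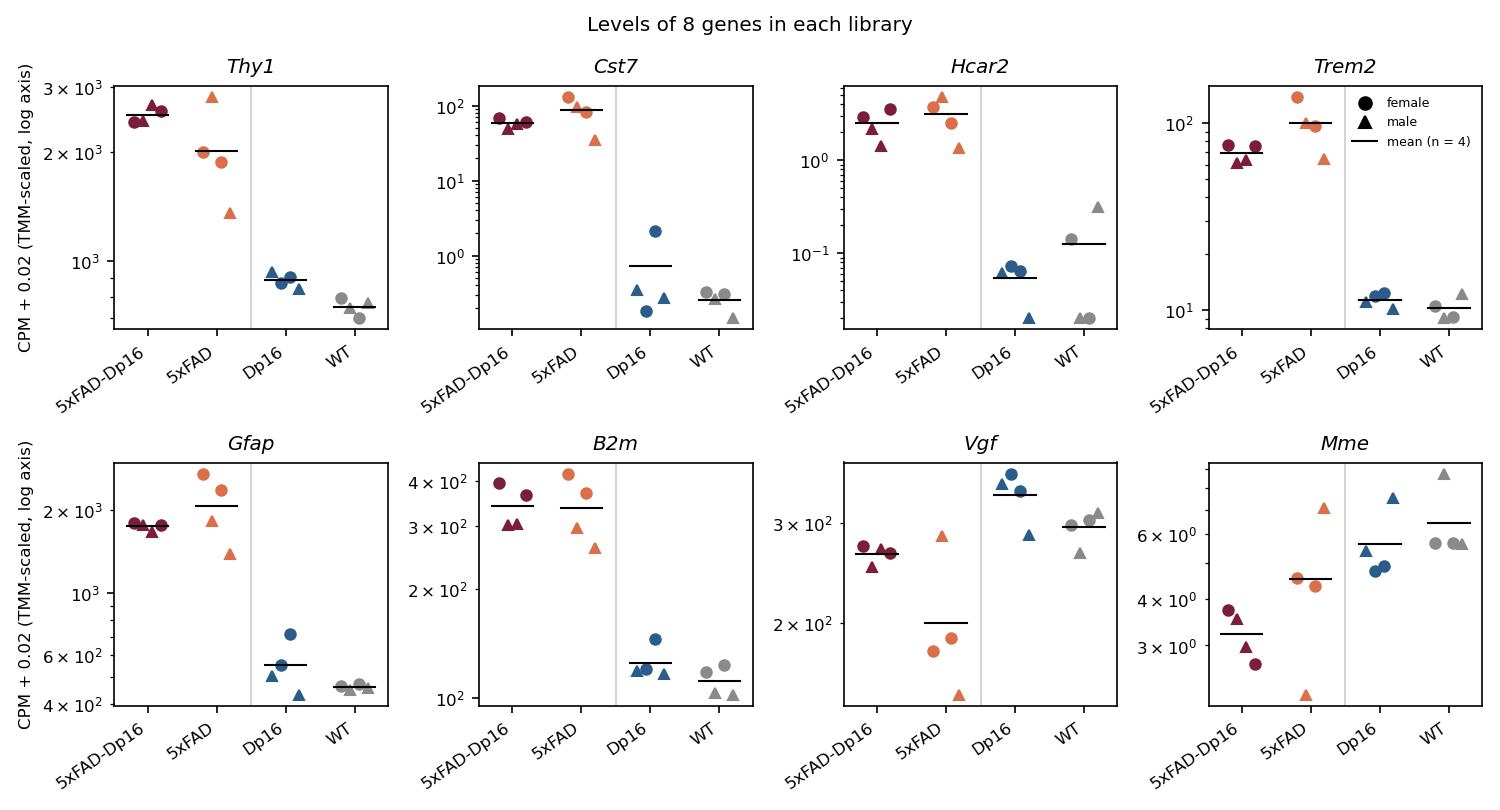
TMM-scaled CPM (log axis, 0.02 added) of 8 genes in each of 16 libraries, by genotype, with circles for females, triangles for males and a line at the mean of 4. The 8 libraries left of the grey line are carriers and lie above all non-carriers for Thy1, Cst7, Hcar2, Trem2, Gfap and B2m, whereas Vgf and Mme overlap between the groups. Cst7 and Hcar2 are from the largest rises, which were limited to genes without overlap.

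Of the 27 plaque-associated microglia genes tested, 25 rose (median log2 1.70), and in the 10 libraries of low thalamus markers 20 did (median 1.60). Trem2, which binds lipids at the microglial surface (gene ENSMUSG00000023992.14 on GRCm38, chromosome 17, 48346401 to 48354147), had 60.8, 75.8 and 138 CPM in carriers, against 9.03, 10.7 and 12.4 CPM in non-carriers. The groups did not overlap (2.93 ± 0.14 SE, adjusted p = 1.69e-09). Cd52, a small surface glycoprotein of leukocytes, rose by a log2 of 3.00 ± 0.16 SE, and Ctss, a cathepsin that digests antigen and matrix, by 1.87 ± 0.10 SE. Ank and Timp2 were not called (0.06 and 0.09). All 18 tested genes of Trem2 and Syk signalling rose (median 1.27), among them the phosphatase Ptpn6 (1.92 ± 0.11 SE) and the lysosomal membrane protein Laptm5 (1.62 ± 0.11 SE). The adaptor Tyrobp, with which Trem2 signals, stood at 2.49 ± 0.15. List scores of the plaque-associated genes were 1.70 to 2.61 in the 8 carriers and -0.17 to 0.31 in the 8 non-carriers, so that no libraries overlapped.

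Markers of resting microglia rose as well, by less. Of 16 homeostatic genes 14 rose (median 0.94), and in the 10 libraries of low thalamus markers 14 did (median 0.94). Cx3cr1, the fractalkine receptor, had 83.6, 115 and 154 CPM in carriers, against 41.4, 54 and 60.2 CPM in non-carriers (1.11 ± 0.10 SE, adjusted p = 3.33e-07). Csf1r, the receptor on which microglia depend for survival, had 139, 217 and 235 CPM in carriers, against 92.6, 112 and 127 CPM in non-carriers (0.95 ± 0.08 SE). The groups did not overlap in either gene, nor in 10 of the 16 in all, against 2.67% of all genes tested. Such genes were named from their list for the smallest p, which favours genes without overlap. The transcription factor Mef2c and the receptor kinase Mertk were not called (0.19 and 0.23). Of 25 microglial transcription factors tested, 14 rose (median 0.30). Irf8, Runx1 and Spi1, which direct myeloid development, stood at 2.07 ± 0.11 SE, 1.69 ± 0.15 SE and 1.39 ± 0.11 SE. Spi1, which encodes PU.1, had 7.77, 11.3 and 17.7 CPM in carriers, against 2.92, 4.36 and 5.25 CPM in non-carriers.

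Receptors that bind antibodies, microbes and complement rose together. Of 9 Fc receptor genes 6 rose (median 1.65), with the inhibitory receptor Fcgr2b at 2.71 ± 0.17 SE, the signalling chain Fcer1g at 1.91 ± 0.12 SE and Fcgr3 at 1.65 ± 0.11 SE. In the 10 libraries of low thalamus markers 6 Fc receptor genes rose (median 1.55). Fcgr2b and Fcgr3 are close relatives whose reads can be shared. Of 18 genes of Toll-like receptor signalling 13 rose (median 1.11), and in those 10 libraries 9 did (median 1.02). The receptor Tlr2 stood at 2.52 ± 0.17 SE, while Ly86, the partner of the receptor Cd180, and Cd14, a binder of lipopolysaccharide, stood at 2.22 ± 0.13 SE and 2.07 ± 0.12 SE. Of 19 complement genes 13 rose (median 1.14), and in those 10 libraries 9 did (median 0.99). C1qa, a chain of the complement initiator, had 205, 257 and 407 CPM in carriers, against 54.9, 64.5 and 74.6 CPM in non-carriers (2.06 ± 0.10 SE, adjusted p = 1.21e-09). C4b, the next component of the cascade (ENSMUSG00000073418.4, chromosome 17, 34728380 to 34743882), had 219.9, 342 and 387 CPM in carriers, against 60.0, 69.8 and 132 CPM in non-carriers (2.00 ± 0.10 SE), although its paralog C4a is nearly identical. The receptor subunit Itgb2 had 1.84 ± 0.09 SE. None of these 3 genes, named for the smallest p, overlapped between the groups, and 8 of the 19 complement genes in all did not.

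Of 18 chemokine and receptor genes 12 rose (median 1.27), and in the 10 libraries of low thalamus markers 7 did (median 1.14). Ccl3 had 4.62, 6.29 and 9.36 CPM in carriers, against 0, 0.287 and 0.48 CPM in non-carriers (adjusted p = 8.07e-09), and Ccl6 had 12.5, 17.8 and 25.1 CPM in carriers, against 0.945, 1.89 and 3.19 CPM in non-carriers (3.31 ± 0.19 SE). Of 14 cytokine and inflammasome genes 11 rose (median 1.01), and in those 10 libraries 6 did (median 0.92). Among the 11 were the receptors Tnfrsf1a (0.99 ± 0.07 SE) and Il10ra (1.25 ± 0.10 SE) and the growth factor Tgfb1 (1.20 ± 0.11 SE). All 7 genes of the phagocyte NADPH oxidase, the enzyme of the oxidative burst, rose (median 1.71, 6 of them in the libraries of low thalamus markers). Its catalytic subunit Cybb had 5.18, 6.09 and 11.2 CPM in carriers, against 0.504, 1.1 and 1.98 CPM in non-carriers (2.70 ± 0.20 SE). The proton channel Hvcn1 stood at 2.14 ± 0.16 SE.

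**Figure D3:**
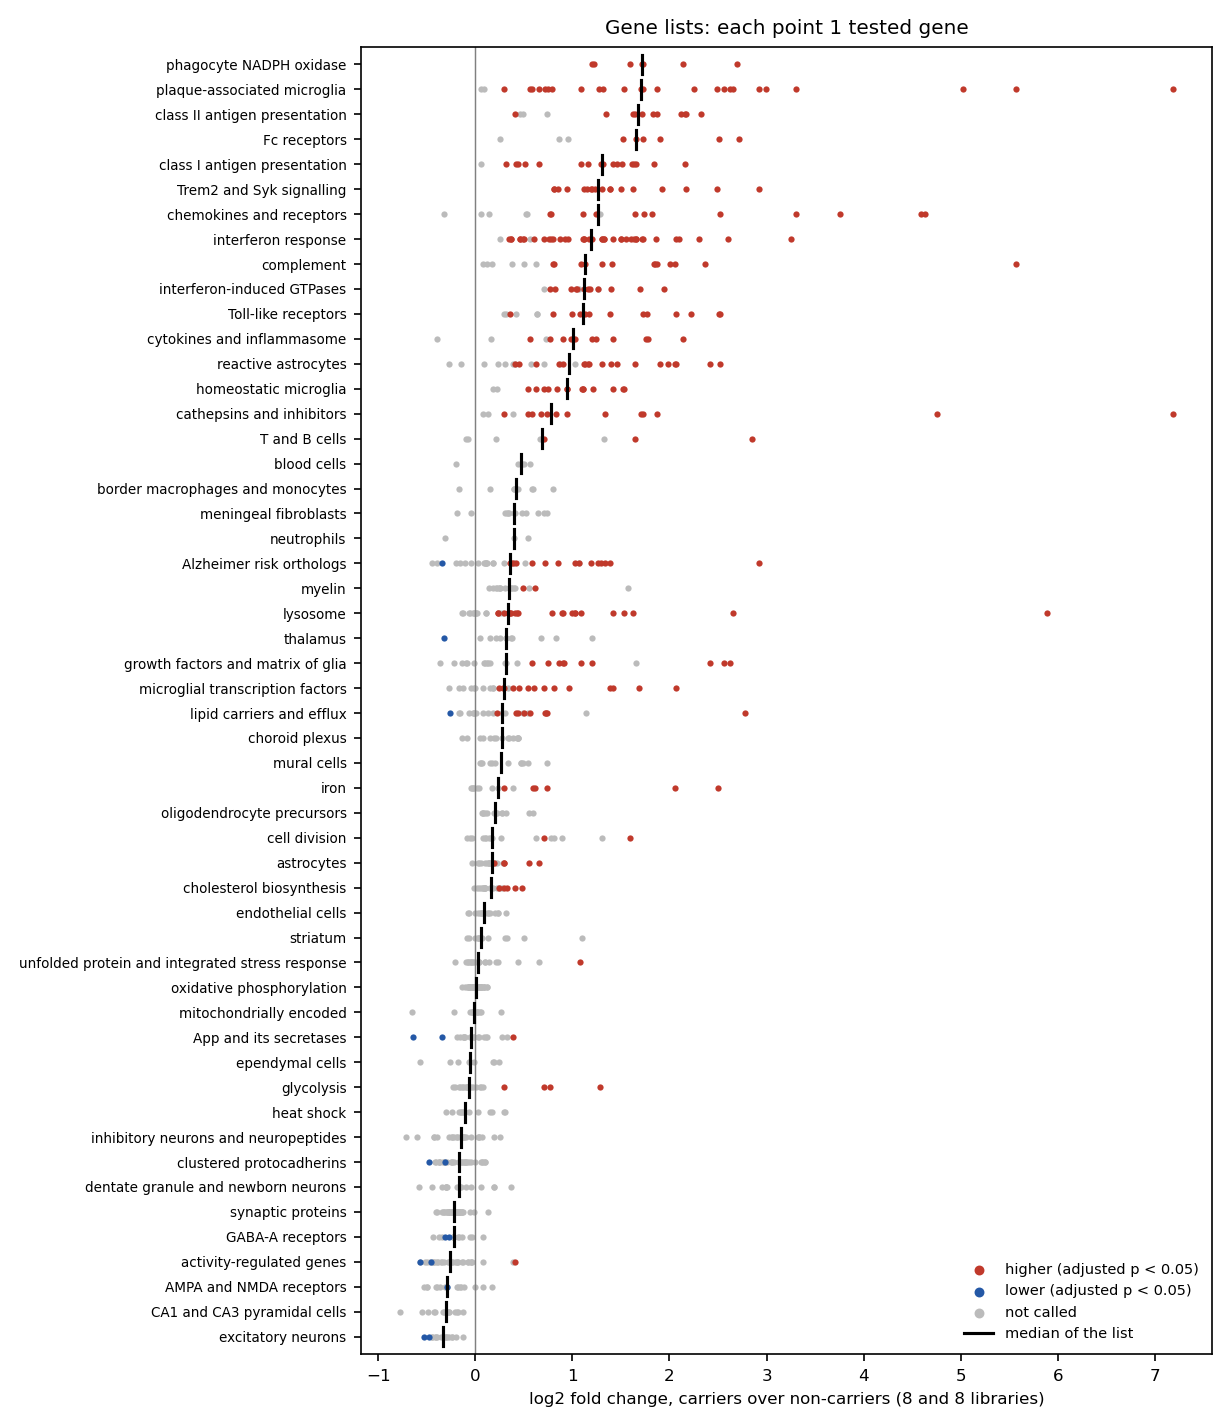
Log2 fold change of carriers over non-carriers for each tested gene of 52 lists, ordered by the median of the list (black line); red and blue points passed an adjusted p of 0.05. The lists with medians of 0.94 to 1.71, at the top, are those of plaque-associated and homeostatic microglia, Trem2 and Syk signalling, Fc and Toll-like receptors, chemokines, cytokines, complement, antigen presentation, interferon response and GTPases, NADPH oxidase and reactive astrocytes; those of neurons, synapses and activity-regulated genes lie at the bottom with medians down to -0.33.

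Genes that present antigen rose in both classes. Of 18 class I genes 17 rose (median 1.31), and the chaperone Calr was not called (0.06). B2m, the light chain shared by class I molecules (ENSMUSG00000060802.8, chromosome 2, 122147686 to 122153083), had 261, 335 and 419 CPM in carriers, against 102, 118 and 146 CPM in non-carriers (1.51 ± 0.06 SE, adjusted p = 1.74e-10). The heavy chains H2-D1 and H2-K1 stood at 1.62 ± 0.09 SE and 1.30 ± 0.08 SE, and reads can be shared among such paralogs. Of 14 class II genes 11 rose (median 1.68), although in the libraries of low thalamus markers 6 did (median 1.66). The costimulator Cd86 stood at 1.71 ± 0.19 SE, and H2-Ob, a modulator of peptide loading, at 2.16 ± 0.24 SE. List scores of class II were 1.17 to 1.99 in carriers and -1.04 to 0.79 in non-carriers.

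Interferon-stimulated genes rose in 40 of 42 cases (median 1.19), and in 29 in the libraries of low thalamus markers. Zbp1, a sensor of Z-form nucleic acids, had 0.82, 1.34 and 2.19 CPM in carriers, against 0.0423, 0.134 and 0.377 CPM in non-carriers (3.25 ± 0.27 SE, adjusted p = 1.32e-07). Its counts summed to 280 in carriers and 26 in non-carriers, so that it entered the test through carriers alone. Lgals3bp, a secreted glycoprotein, had 75.1, 106 and 125 CPM in carriers, against 23.6, 29.9 and 48.3 CPM in non-carriers (1.64 ± 0.12 SE). Of 15 interferon-induced GTPases, which act against pathogens inside cells, 12 rose (median 1.12), and in the libraries of low thalamus markers 9 did (median 0.97). Irgm1 had 15.1, 18.3 and 19.6 CPM in carriers, against 6.66, 7.96 and 9.57 CPM in non-carriers (1.18 ± 0.08 SE, adjusted p = 1.51e-08). Igtp had 6.36, 8.91 and 9.72 CPM in carriers, against 2.26, 3.46 and 4.32 CPM in non-carriers (1.26 ± 0.14 SE), and Gbp2 had 8.29, 12.2 and 14.2 CPM in carriers, against 3.9, 5.34 and 6.83 CPM in non-carriers (1.17 ± 0.13 SE). In each of these 5 genes the lowest carrier exceeded the highest non-carrier. They were named for the smallest p, which favours this. It held for 29 of the 42 interferon response genes and 9 of the 15 GTPases, against 2.67% of all genes tested.

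Promoters of 5 risen genes are printed as examples chosen because they hold the same motif, as the RefSeq window of GRCm38.p6 from 250 bases before to 50 after the gene start, 5′ to 3′ on the strand of the gene. Capitals mark the interferon-stimulated response element, searched on both strands as GAAA, any 2 bases, GAAA; Gbp2 holds it on the other strand, and in Irgm1 a pair of matches overlap. Irgm1 is at chr11:48871371-48871670 (minus strand), Igtp at chr11:58199306-58199605 (plus), Gbp2 at chr3:142620413-142620712 (plus), B2m at chr2:122147437-122147736 (plus) and Ctss at chr3:95526536-95526835 (plus).
Irgm1: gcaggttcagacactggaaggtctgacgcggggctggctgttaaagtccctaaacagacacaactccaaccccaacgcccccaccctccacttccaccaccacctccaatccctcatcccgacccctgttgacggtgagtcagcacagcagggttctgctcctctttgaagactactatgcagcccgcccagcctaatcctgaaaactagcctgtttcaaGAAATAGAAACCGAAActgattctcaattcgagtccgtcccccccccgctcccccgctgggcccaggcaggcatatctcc
Igtp: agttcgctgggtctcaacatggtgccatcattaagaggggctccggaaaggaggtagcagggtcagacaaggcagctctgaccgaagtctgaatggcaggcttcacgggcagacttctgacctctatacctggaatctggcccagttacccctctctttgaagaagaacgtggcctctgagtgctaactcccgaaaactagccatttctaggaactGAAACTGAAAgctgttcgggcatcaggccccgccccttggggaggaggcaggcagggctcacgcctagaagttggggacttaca
Gbp2: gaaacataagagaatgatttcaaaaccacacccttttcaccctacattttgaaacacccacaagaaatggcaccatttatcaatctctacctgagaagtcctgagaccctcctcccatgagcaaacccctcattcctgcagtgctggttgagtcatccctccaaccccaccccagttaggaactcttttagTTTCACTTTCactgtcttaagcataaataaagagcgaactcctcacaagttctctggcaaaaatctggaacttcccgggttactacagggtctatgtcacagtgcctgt
B2m: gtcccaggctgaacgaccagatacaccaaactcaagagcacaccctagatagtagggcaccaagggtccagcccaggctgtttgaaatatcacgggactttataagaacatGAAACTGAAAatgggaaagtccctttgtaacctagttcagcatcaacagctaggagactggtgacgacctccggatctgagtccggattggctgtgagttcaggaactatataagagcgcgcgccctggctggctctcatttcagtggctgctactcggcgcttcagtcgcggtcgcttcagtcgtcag
Ctss: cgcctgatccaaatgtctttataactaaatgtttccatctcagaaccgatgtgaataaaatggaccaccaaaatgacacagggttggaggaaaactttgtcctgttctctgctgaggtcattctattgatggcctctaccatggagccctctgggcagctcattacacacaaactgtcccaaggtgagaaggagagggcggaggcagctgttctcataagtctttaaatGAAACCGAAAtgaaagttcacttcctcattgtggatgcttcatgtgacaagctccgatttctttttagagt

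The match began at -30 in Irgm1, -34 in Igtp, -59 in Gbp2, -139 in B2m and -21 in Ctss, counted from the gene start. A window was given for 12425 of the tested genes, and 454 of these held the motif (3.65%; 3.99% of all 27025 windows). Among the genes that rose, 91 of 870 with a window held it (10.5%), and among those that fell 6 of 229 (2.62%). It was present in 9 of 10 interferon-induced GTPases, 15 of 31 interferon response genes, 3 of 15 class I genes and 2 of 22 plaque-associated microglia genes with a window. It was also present in 6 of 25 activity-regulated genes (24%), a list of mostly negative values. Of 13 genes of Trem2 and Syk signalling 0 held it. The letters GAGGAAGT, bound by PU.1, were found on either strand in 68 of the 870 risen genes (7.82%), in 4 of 229 fallen genes (1.75%) and in 3.36% of tested genes. Of the 13 Trem2 and Syk genes 3 held them. The cyclic AMP response element TGACGTCA was found in 17 risen genes (1.95%), in 12 fallen genes (5.24%) and in 3.35% of tested genes. Among other named genes, Cybb and Tgm1 also held the interferon motif, and Lgals3bp and Irf8 had windows without it. These matches describe letters in a window and no binding.

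Genes of lysosomal digestion and lipid handling rose in part. Of 16 cathepsins and their inhibitors 13 rose (median 0.78). Ctsd, the main aspartic protease of lysosomes, had 671, 789 and 1362 CPM in carriers, against 247, 257 and 348 CPM in non-carriers (1.70 ± 0.11 SE, adjusted p = 6.96e-09), and Ctsz had 1.72 ± 0.11 SE. Of 36 lysosome genes 22 rose (median 0.34), with the mannosidase Man2b1 at 0.99 ± 0.07 SE. In the 10 libraries of low thalamus markers 16 lysosome genes rose (median 0.32). The proton pump subunit Atp6v0d2, named after its values were seen, stood far above the rest of that list at 5.88 ± 0.59. Of 25 genes of lipid carriage and efflux 9 rose and 1 fell (median 0.28). Apoe, which carries lipids between brain cells (gene ENSMUSG00000002985.16 on GRCm38, chromosome 7, 19696109 to 19699188), had 2909, 3905 and 5813 CPM in carriers, against 2031, 2426 and 2643 CPM in non-carriers (0.71 ± 0.09 SE, adjusted p = 1.96e-05). Ch25h, which makes 25-hydroxycholesterol, had 1.01, 2.37 and 6.94 CPM in carriers, against 0.127, 0.479 and 0.668 CPM in non-carriers (2.78 ± 0.39 SE). The acyltransferase Lpcat2 stood at 0.73 ± 0.09 SE. The 1 that fell, named after its values were seen, was the sterol transporter Abcg4 (-0.26 ± 0.05). Of 23 genes of cholesterol biosynthesis 5 rose and 22 had a positive value (median 0.16), among them the sterol carrier Stard4 (0.48 ± 0.06 SE), the farnesyl diphosphate synthase Fdps (0.41 ± 0.10 SE) and the thiolase Acat2 (0.33 ± 0.06 SE).

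The next lists are read beside the 6.55% of all genes that were higher. Of 15 iron genes 6 rose (median 0.23). They included Slc11a1, a metal transporter of phagosomes (2.50 ± 0.14 SE), the heme oxygenase Hmox1 (0.74 ± 0.10 SE) and the ferritin light chain Ftl1 (0.59 ± 0.07 SE). Of 23 glycolysis genes 4 rose (median -0.07), and the 3 of smallest p were the hexokinases Hk3 (1.28 ± 0.17 SE) and Hk2 (0.77 ± 0.12 SE) and the fructose transporter Slc2a5 (0.70 ± 0.13 SE). In oxidative phosphorylation 0 of 34 genes were called (median 0.00), as were 0 of 13 mitochondrially encoded genes (median -0.01) and 0 of 14 heat shock genes (median -0.11). The oxidative phosphorylation median was -0.13 in 5xFAD-Dp16 against Dp16 and 0.14 in 5xFAD against WT, and that of the mitochondrially encoded genes 0.12 and -0.10. In the unfolded protein and integrated stress response 1 of 20 genes was called, the stress factor Atf3 (1.08 ± 0.24 SE). Of 17 cell division genes 2 rose, Top2a (1.59 ± 0.25 SE) and Mcm3 (0.70 ± 0.16 SE). Both lost their call in the 10 libraries of low thalamus markers, at 1.57 and 0.78 (adjusted p = 0.0607 and 0.0876).

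Of 30 reactive astrocyte genes 19 rose (median 0.97), and in the 10 libraries of low thalamus markers 15 did (median 0.95). Gfap, an intermediate filament (gene ENSMUSG00000020932.14 on GRCm38, chromosome 11, 102887336 to 102900912), had 1388, 1778 and 2698 CPM in carriers, against 432, 469 and 713 CPM in non-carriers (1.90 ± 0.11 SE, adjusted p = 4.11e-09). The protease inhibitor Serpina3n had 88.3, 159 and 198 CPM in carriers, against 38.2, 48.8 and 69 CPM in non-carriers (1.64 ± 0.12 SE). In both the groups did not overlap, as in 11 of the 30 genes in all. General astrocyte markers changed by less, with 5 of 20 higher (median 0.17). The water channel Aqp4 stood at 0.66 ± 0.14 SE, the calcium-binding protein S100b at 0.55 ± 0.14 SE and the membrane protein Mlc1 at 0.30 ± 0.07 SE, and in all 3 the groups overlapped. S100b lost its call without WT 2, WT 7 or WT 16, and Mlc1 in the 10 libraries of low thalamus markers (0.24 ± 0.07 SE, adjusted p = 0.0675). Of 25 growth factor and matrix genes of glia 10 rose (median 0.31), with Csf1, the growth factor of microglia, at 0.74 ± 0.08 SE and the receptor Csf2ra at 0.91 ± 0.11 SE.

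Most lists of other cell types held no call, while myelin and T and B cells held 2 and 3 rises, read beside the 6.55% of all genes that were higher. Of 18 myelin genes, all with positive values, 2 rose (median 0.35), the transferrin gene Trf (0.62 ± 0.14 SE) and the junction gene Cldn11 (0.49 ± 0.12 SE). In the 10 libraries of low thalamus markers 0 were called, with Trf at 0.46 ± 0.18 SE and Cldn11 at 0.36 ± 0.17 SE. In oligodendrocyte precursors 0 of 14 genes were called (median 0.21, 14 positive) and in endothelial cells 0 of 16 (0.09, 13 positive). Mural cells had 0 of 12 called (0.27, 12 positive) and meningeal fibroblasts 0 of 13 (0.40, 11 positive). The medians of these lists in the 10 libraries of low thalamus markers were, in the same order, 0.17, 0.08, 0.13 and 0.006. In choroid plexus 0 of 15 were called (0.27), with scores of -2.66 to 3.01 in carriers and -2.86 to 3.41 in non-carriers. In border macrophages and monocytes 0 of 8 tested genes of 12 were called (0.42), and their defining genes Mrc1, Cd163 and Lyve1 stood at 0.16 ± 0.28, 0.44 ± 0.30 and 0.40 ± 0.34. Neutrophil and blood cell lists had 0 of 3 and 0 of 6 called. Of 22 T and B cell genes 8 were tested and 3 rose. A gene could pass the count filter through carriers alone, as Cd3e did, so that the tested genes are not a neutral sample of the list. Cd3e, a signalling chain of T cells, had 0.316, 0.642 and 1.1 CPM in carriers, against 0, 0.0646 and 0.267 CPM in non-carriers (2.85 ± 0.50 SE, adjusted p = 0.000716), with 125 counts in all in carriers and 16 in non-carriers. The chemokine Ccl5 stood at 1.65 ± 0.41 SE and the immunoglobulin chain Ighm at 0.71 ± 0.16 SE. Both lost their call in the 10 libraries of low thalamus markers (1.64 ± 0.66 SE and 0.48 ± 0.25 SE, adjusted p = 0.24 and 0.445).

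Orthologs of Alzheimer risk genes rose in 15 of 34 cases and fell in 1 (median 0.36). In the 10 libraries of low thalamus markers 11 rose and 0 fell (median 0.35). Beside Trem2 and Spi1, the lysosomal protein gene Grn had 96.6, 125 and 157 CPM in carriers, against 54, 62.6 and 67.1 CPM in non-carriers (1.03 ± 0.08 SE, adjusted p = 7.69e-08). The groups did not overlap, as in 10 of the 34 genes in all. Of 21 genes of App and its processing 1 rose and 2 fell (median -0.04), beside 6.55% of all genes higher and 1.78% lower. The sheddase Adam17 rose by 0.38 ± 0.08 SE, and lost its call in the 10 libraries of low thalamus markers (0.25 ± 0.12 SE, adjusted p = 0.351). Mme, which encodes the amyloid-degrading protease neprilysin (ENSMUSG00000027820.12, chromosome 3, 63241537 to 63386030), had 2.19, 3.61 and 7.06 CPM in carriers, against 4.76, 5.64 and 8.74 CPM in non-carriers. The groups overlapped (-0.64 ± 0.19 SE, adjusted p = 0.0452). By genotype Mme averaged 3.21 ± 0.491 CPM in 5xFAD-Dp16 and 4.53 ± 2 CPM in 5xFAD, against 5.63 ± 1.27 CPM in Dp16 and 6.42 ± 1.54 CPM in WT (SD, n = 4 each). It kept its call without WT 16, 5xFAD 10 or 5xFAD 15 and lost it without any other single library, yet in the 10 libraries of low thalamus markers it stood at -0.95 ± 0.19 SE (adjusted p = 0.00807). The sorting receptor Sorl1, which is also the 1 risk ortholog that fell, had 218, 329 and 427 CPM in carriers, against 339, 416 and 483 CPM in non-carriers (-0.35 ± 0.10 SE, adjusted p = 0.0467). Its call was kept without Dp16 14, 5xFAD 10, 5xFAD-Dp16 8 or 5xFAD-Dp16 9 and lost without any other single library, and it stood at -0.23 ± 0.08 SE in the 10 libraries (adjusted p = 0.166).

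The falls were small. Of the 10 largest falls among called genes of sufficient level whose groups did not overlap, predicted genes left out, the largest was that of Ptpn3, a tyrosine phosphatase that is also on the thalamus list (ENSMUSG00000038764.14, chromosome 4, 57190841 to 57301837). It had 43.8, 63.5 and 71.1 CPM in carriers, against 72.6, 75.6 and 92.7 CPM in non-carriers (-0.33 ± 0.08 SE, adjusted p = 0.0157). The endosomal sorting protein Snx25 had 32, 34.7 and 38.8 CPM in carriers, against 40.4, 42.3 and 44.6 CPM in non-carriers (-0.29 ± 0.05 SE, adjusted p = 0.000837). Pcsk2, a convertase of neuropeptides, had 213, 265 and 297 CPM in carriers, against 298, 313 and 343 CPM in non-carriers (-0.29 ± 0.06 SE). The other genes in this set were Rgs7bp (-0.32 ± 0.07 SE), which anchors regulators of G protein signalling, Atrnl1 (-0.29 ± 0.06 SE), the co-chaperone Bag5 (-0.23 ± 0.05 SE), the lipid phosphatase Fig4 (-0.23 ± 0.05 SE), Ccdc85a (-0.22 ± 0.05 SE), the ubiquitin ligase Ube3c (-0.22 ± 0.05 SE) and the adhesion protein Nptn (-0.21 ± 0.06 SE). Snx25 and Ptpn3 were also called in the 10 libraries of low thalamus markers (-0.31 ± 0.08 SE and -0.31 ± 0.07 SE, adjusted p = 0.0389 and 0.0143), and the other 8 were not, with values from -0.22 to -0.16. Nptn lost its call over all libraries without any of WT 2, WT 7, WT 16, Dp16 3, Dp16 12, 5xFAD 13, 5xFAD 15 or 5xFAD-Dp16 1.

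Of 32 activity-regulated genes 2 fell and 1 rose, beside 1.78% and 6.55% of all genes. A negative value was found for 29 of them (median -0.25). In the 10 libraries of low thalamus markers 4 fell and 0 rose (median -0.25), and with the thalamus score as a covariate 4 fell and 1 rose (median -0.19). Vgf, a secreted neuropeptide precursor induced by neuronal activity (ENSMUSG00000037428.14, chromosome 5, 137026392 to 137033351), had 149, 258 and 285 CPM in carriers, against 265, 308 and 367 CPM in non-carriers. The groups overlapped (-0.45 ± 0.11 SE, adjusted p = 0.0109), and in the 10 libraries of low thalamus markers the fall was -0.33 ± 0.07 SE (adjusted p = 0.0145). Inhba, an activin subunit, stood at -0.57 ± 0.16 SE (adjusted p = 0.0359). It kept its call without Dp16 3, Dp16 5, Dp16 14, 5xFAD 10, 5xFAD-Dp16 8 or 5xFAD-Dp16 9 and lost it without any other single library, and it was at -0.30 ± 0.20 SE in the 10 libraries (adjusted p = 0.558). The stress-induced Gadd45g rose (0.41 ± 0.10 SE), with 0.30 ± 0.15 SE in the 10 libraries (adjusted p = 0.389). The immediate early genes Arc, Npas4 and Fos, named after their values were seen, were not called over all libraries (-0.50 ± 0.18, -0.24 ± 0.21 and -0.12 ± 0.19). Beside Vgf, the 3 that fell in the 10 libraries were Arc (-0.59 ± 0.12 SE, adjusted p = 0.0218) and the transcription factors Nr4a1 (-0.50 ± 0.09 SE, adjusted p = 0.00392) and Egr4 (-0.37 ± 0.08 SE, adjusted p = 0.0199), the last pair likewise named after their values were seen.

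All 16 excitatory neuron genes had a negative value (median -0.33) and 2 fell, beside 1.78% of all genes. Rasgrp1, an exchange factor for Ras, had 195, 391 and 562 CPM in carriers, against 452, 580.4 and 695 CPM in non-carriers (-0.53 ± 0.15 SE, adjusted p = 0.0372). The ephrin receptor Epha7 had 62.9, 96.5 and 125 CPM in carriers, against 103, 136 and 157 CPM in non-carriers (-0.48 ± 0.13 SE, adjusted p = 0.0375). In both the groups overlapped. In the 10 libraries of low thalamus markers 3 of the 16 were lower (median -0.20), with Rasgrp1 at -0.36 ± 0.08 SE and Epha7 at -0.43 ± 0.09 SE (adjusted p = 0.0114 and 0.0115). Rasgrp1 lost its call without any of WT 2, WT 7, WT 16, Dp16 3, Dp16 5, Dp16 12, 5xFAD 6, 5xFAD 13, 5xFAD-Dp16 1 or 5xFAD-Dp16 11, and Epha7 without any of WT 2, WT 7, WT 16, Dp16 3, Dp16 5, Dp16 12, 5xFAD 6, 5xFAD 15 or 5xFAD-Dp16 11. Excitatory list scores were -0.48 in 5xFAD-Dp16 1 and -0.63, -0.37 and -1.36 in 5xFAD 6, 13 and 15, against -0.44 in Dp16 14 and -0.42 in WT 4, all 6 of high thalamus markers. In the other 10 they were -0.13, -0.03, 0.10 and -0.06 in carriers, against 0.06 to 0.24 in non-carriers. Carriers thus had the lower median in each set, with an overlap in both. With the thalamus score as a covariate 3 of the 16 were lower (median -0.23), with Rasgrp1 at -0.44 ± 0.10 SE and Epha7 at -0.39 ± 0.09 SE (adjusted p = 0.0083 and 0.00872).

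Receptor and synapse lists showed the same small negative values with few calls, read beside the 1.78% of all genes that were lower. Of 17 AMPA and NMDA receptor genes 1 fell (median -0.29), the NMDA receptor subunit Grin1 (-0.29 ± 0.09 SE, adjusted p = 0.0438). It kept its call without Dp16 14, 5xFAD 10 or 5xFAD-Dp16 9 and lost it without any other single library. Of 14 GABA-A receptor genes 2 fell (median -0.22), among them the subunit Gabrb2 (-0.27 ± 0.07 SE; lost without WT 2, WT 4, Dp16 12 or 5xFAD 6). In the 10 libraries of low thalamus markers the medians of these receptor lists were -0.14 and -0.14, and neither Grin1 (-0.16 ± 0.06 SE) nor Gabrb2 (-0.21 ± 0.08 SE) was called (adjusted p = 0.245 and 0.25). The 1 GABA-A gene lower there, named after its values were seen, was the subunit Gabra5 (-0.33 ± 0.08 SE, adjusted p = 0.033). With the thalamus score as a covariate 4 AMPA and NMDA receptor genes (median -0.22) and 4 GABA-A receptor genes (-0.18) were lower, with Grin1 at -0.24 ± 0.06 SE and Gabrb2 at -0.30 ± 0.07 SE (adjusted p = 0.0211 and 0.00685). Of 33 synaptic proteins 0 were called, with 32 negative (median -0.22), and the 16 genes of CA1 and CA3 pyramidal cells, all negative, had 0 calls too (-0.30). Dentate granule and newborn neuron genes (0 of 17, -0.17) and inhibitory neurons and neuropeptides (0 of 24, -0.15) had no calls either. With the thalamus score as a covariate 1 synaptic protein gene, 2 CA1 and CA3 genes, 0 dentate genes and 2 genes of inhibitory neurons were lower. In the 10 libraries of low thalamus markers 0, 0, 0 and 1 were, in the same order. The medians there were -0.125, -0.19, -0.18 and -0.12. Of 35 clustered protocadherins, adhesion genes that share sequence and mark single neurons, 2 fell (median -0.17). These were Pcdha12 (-0.47 ± 0.11 SE) and Pcdhac2 (-0.31 ± 0.09 SE), neither called in the 10 libraries (-0.47 ± 0.17 SE and -0.18 ± 0.08 SE), and Pcdhac2 kept its call without Dp16 3, Dp16 14, 5xFAD 10, 5xFAD-Dp16 8 or 5xFAD-Dp16 9 and lost it without any other single library.

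The transgene effect was then taken apart by the duplication, in pairs of genotypes that share no library. Without the duplication (5xFAD against WT) 909 genes were higher (5.31%) and 335 lower (1.96%), and with it (5xFAD-Dp16 against Dp16) 512 were higher (2.99%) and 6 lower (0.035%). Of the 909 higher without the duplication, 881 (96.9%) had the same sign with it and 455 were called there, with a median log2 of 0.72 with it and 0.91 without it. Over all genes 48.5% had a positive value with it. Of the 335 lower genes 301 (89.9%) had the same sign with the duplication and 2 were called, with medians of -0.11 with it and -0.41 without it. Trem2 stood at 2.60 ± 0.16 SE with the duplication and 3.26 ± 0.17 SE without it, Cst7 at 6.39 ± 0.50 SE and 8.46 ± 0.59 SE, Gfap at 1.68 ± 0.14 SE and 2.13 ± 0.14 SE, and Hcar2 at 5.97 ± 0.81 SE and 4.75 ± 0.68 SE. Medians of the plaque-associated list were 1.56 with it and 1.84 without it, and those of the excitatory neuron list -0.19 and -0.52. 5xFAD held 3 libraries of high thalamus markers and 5xFAD-Dp16 held 1, against 1 each in Dp16 and WT.

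Of all 17132 genes, 0 were called for a difference between the effects with and without the duplication (0%). An unadjusted p below 0.05 was found for 1114, and the smallest adjusted p was 0.718. DESeq2 called 1, the predicted gene Gm16582, which had 0 counts in 5xFAD-Dp16, 2 in 5xFAD, 2 in Dp16 and 0 in WT. Without a filter on low counts 290 genes were called, and in the 10 libraries of low thalamus markers 15. The 4 genes of smallest p were Aldh1a7, an aldehyde dehydrogenase, Prim1, the primase subunit, Ddx49, an RNA helicase, and Chrd, an antagonist of bone morphogenetic proteins. Prim1 averaged 2.51 ± 0.391 CPM in 5xFAD-Dp16, against 3.37 ± 0.421 CPM in Dp16, and 4.58 ± 1.03 CPM in 5xFAD, against 2.67 ± 0.628 CPM in WT (SD, n = 4 each). The effects on Aldh1a7 were -2.10 ± 0.71 SE with the duplication and 2.06 ± 0.65 SE without it, those on Ddx49 -0.24 ± 0.06 SE and 0.18 ± 0.06 SE, and those on Chrd 0.29 ± 0.10 SE and -0.30 ± 0.10 SE. The call count without the duplication, 1244 in all, was 562 without WT 2, 641 without 5xFAD 6, 712 without WT 7, 738 without 5xFAD 15 and 3486 without 5xFAD 10.

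**Figure D4:**
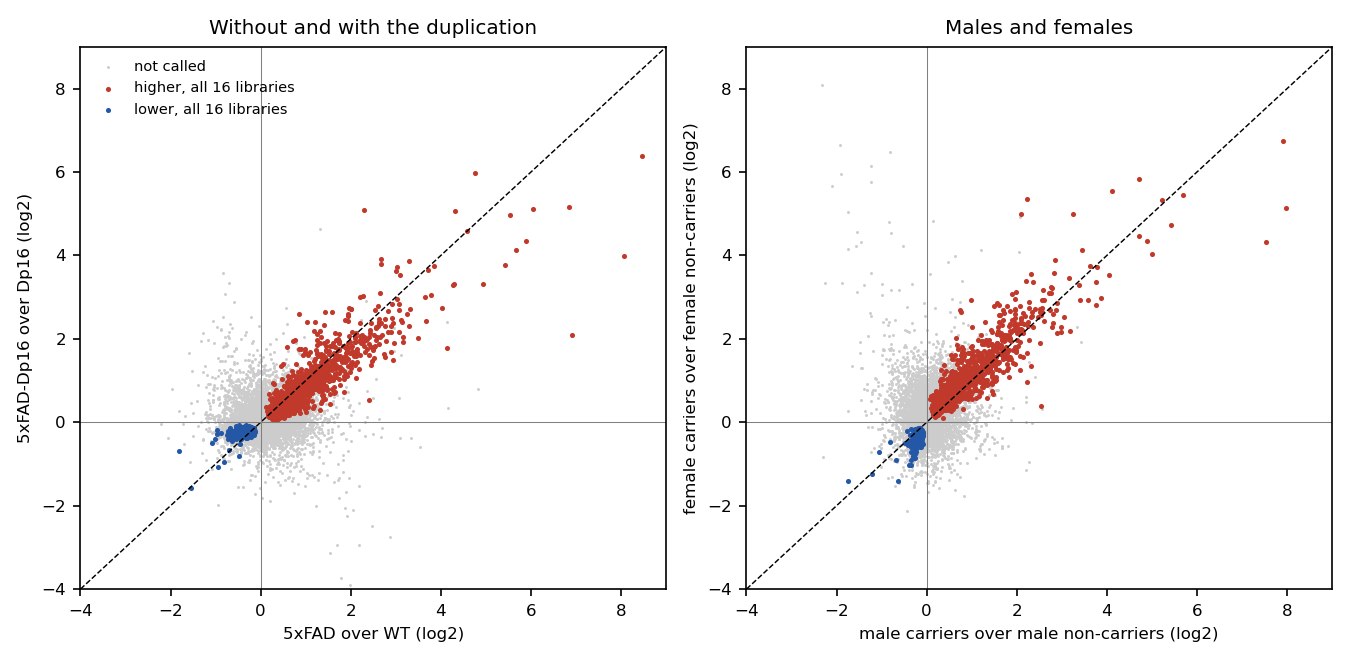
Log2 fold changes of the transgenes for 17132 genes, with the duplication against without it (left) and in females against males (right). Red and blue points are the genes called higher (1123) and lower (305) over all 16 libraries, grey points the others, and the dashed line marks equal change; of the 909 genes higher in 5xFAD against WT, 881 lie above 0 on the vertical axis at left.

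Females and males were compared likewise. In female carriers against female non-carriers 960 genes were higher (5.6%) and 409 lower (2.39%), and in male carriers against male non-carriers 440 were higher (2.57%) and 1 lower (0.00584%), which was Ptpn3. Of the 960 genes higher in females 934 (97.3%) had the same sign in males and 419 were called there, with a median of 0.97 in females and 0.66 in males. Over all genes 48.9% had a positive value in males. All 440 genes higher in males had a positive value in females, with a median of 1.33 in females and 1.24 in males. Of the 409 genes lower in females 400 (97.8%) had the same sign in males and 0 were called, with medians of -0.39 in females and -0.13 in males. The median of the thalamus list was 1.66 in females and -0.87 in males. With the thalamus score as a covariate the counts were 470 higher and 39 lower in females, and 520 higher and 19 lower in males. Trem2 stood at 3.10 ± 0.20 SE in females and 2.75 ± 0.20 SE in males, Apoe at 0.90 ± 0.11 SE and 0.52 ± 0.11 SE, Gfap at 1.97 ± 0.16 SE and 1.84 ± 0.16 SE, and Vgf at -0.55 ± 0.15 SE and -0.35 ± 0.15 SE. Larger in males were the values of Cst7 (6.75 ± 0.57 SE in females and 7.91 ± 0.65 SE in males), Clec7a (4.72 ± 0.55 SE and 5.42 ± 0.59 SE) and Igtp (1.08 ± 0.19 SE and 1.44 ± 0.19 SE).

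Of all 17132 genes, 0 were called for a difference between the effects in females and males (0%). An unadjusted p below 0.05 was found for 601, and the smallest adjusted p was 0.946. DESeq2 called 1, Pax7, a transcription factor that had 166 counts in female carriers and 0 in female non-carriers, and 301 in male carriers and 408 in male non-carriers. Libraries of high thalamus markers were, in the same order, 3, 0, 1 and 2 of 4. A link of Pax7 to these markers was not tested. Without a filter on low counts 296 genes were called. The 4 genes of smallest p were Cntn5, a neuronal adhesion protein, Eif4ebp1, a repressor of translation, Fam135a and Zfp972. The effects on Cntn5 were 0.66 ± 0.20 SE in females and -0.47 ± 0.20 SE in males, those on Eif4ebp1 0.81 ± 0.16 SE and -0.14 ± 0.16 SE, those on Fam135a 0.42 ± 0.11 SE and -0.23 ± 0.11 SE, and those on Zfp972 1.31 ± 0.43 SE and -1.42 ± 0.44 SE.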

How the data were processed

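RNA was extracted with TRIzol, and polyadenylated RNA was sequenced from stranded libraries as 150 bp read pairs, per the labels' protocols. HISAT2 2.1.0, SAMtools 1.5, HTSeq 0.6.1, FastQC 0.11.5 and the build GRCm38 are named in the submitters' processing notes, without their roles. The deposited raw counts per gene were used for all tests, and the deposited RPKM values, scaled by gene length and library total, for an alternative with limma 3.58.1 (pseudocounts of 0.1 and 1). DESeq2 1.42.0 was another alternative. Strand setting and treatment of reads shared between genes were not given in the sources used here.

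Genes were kept by filterByExpr (minimum count 10). A gene of low level could pass this filter through carriers alone or through non-carriers alone. Counts were scaled by TMM and fitted with edgeR 4.0.16 (R 4.3.3), with a quasi-likelihood test of the transgenes and terms for the duplication and sex. Effects within genotype pairs and within sexes came from group models of all 16 libraries. A gene was called at a Benjamini-Hochberg adjusted p below 0.05 over all 17132 genes. The script was tested on simulated data. Levels are TMM-scaled CPM and changes are log2 ± SE. Positions are from GENCODE M21.

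Named genes were the 10 largest rises and the 10 largest falls among called genes (mean log2 CPM of at least 0, no overlap of the 8 and 8 libraries, no predicted gene), up to 3 called genes of smallest p per list, the 4 of smallest p for each difference, and Thy1, App, Apoe, Trem2, Cst7 and Gfap. A few genes that this rule names are not reported here. The comparison and its 52 lists were chosen with earlier results of these data known. A list score is the mean log2 CPM of its tested genes, with 1 count added and 0 at the mean of the non-carriers. Where the labels do not say that libraries came from separate litters or cultures, p-values measure the spread between these libraries.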

Additional observations from a re-analysis of the deposited data

Results flagged for a closer look

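In the 111 named genes, each arm of 8 libraries was searched for a library far from the other 7, by the gap to its nearest neighbour as a share of the range. Of 222 gene and arm pairs 20 stood out, in 17 genes, and chance gives about 1 in 20 arms, or 5%.

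Among carriers, the library 5xFAD 15 (a male of high thalamus markers) stood below the others for 6 genes: Slc2a5 (gap share 0.768), Csf1r (0.751), Rgs7bp (0.586), Laptm5 (0.579), Ptpn3 (0.566) and Serpina3n (0.547). The library 5xFAD 6, a female of high thalamus markers, stood above the others for Clec7a (0.593) and Fcgr3 (0.551). These values are given without explanation.

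Among non-carriers, the female Dp16 12 stood above the others for Cst7 (0.718), Clec7a (0.565) and Fcgr3 (0.556), and the female Dp16 5 for Ighm (0.59) and Il10ra (0.553). The male Dp16 3 stood below the others for Ly9 (0.587), Spi1 (0.562) and Ccl3 (0.561), and the male Dp16 14 above them for Ptpn3 (0.733). In WT, library 7 stood above the others for Ctsd (0.671) and below them for Prim1 (0.556), and library 4 below them for Igtp (0.623).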

How the results depend on the processing

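The direction of every named gene that was called held under all alternatives in which it was tested. Of 81 named genes that rose, 72 were called under each alternative in which they were tested, and 80 without each single library. Of 21 that fell, 4 and 11 were. Cd3e, Ch25h, Pdcd1, Zbp1 and Ccl5 were tested in 10 of the 11 alternatives. The count of higher genes (1123) was 1717 without a filter on low counts and 588 in the 10 libraries of low thalamus markers, and lay between 927 and 1427 without single libraries. The count of lower genes (305) was 958 with DESeq2, 999 without a filter, 139 without the duplication term and 40 in the 10 libraries of low thalamus markers, and lay between 115 and 944 without single libraries. RLE scaling gave 1050 higher and 424 lower. Without the duplication the 1244 calls were 2115 with DESeq2, 2692 without a filter and 301 in the 10 libraries of low thalamus markers, where 5xFAD kept 1 library that is assumed to vary like the rest, and 562 to 3486 without single libraries. With the duplication the 518 calls were 890 without a filter and 384 to 544 without single libraries. The difference between backgrounds (0 calls) had 1 with DESeq2, 290 without a filter and 15 in the 10 libraries of low thalamus markers, and that between sexes (0 calls) had 1 and 296 with the same first 2 settings. Both stayed at 0 without any single library. The cause of these moves was not tested. Of 52 list medians 4 moved by more than the SD of the non-carrier scores in the 10 libraries of low thalamus markers, 14 with log2(RPKM + 1), 2 with log2(RPKM + 0.1), and 0 with the thalamus score as covariate. No paired analysis was possible because the numbers in the titles are unique to each library.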
